A study of Mus musculus with 4 samples.

Results

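Transcripts of 5 genes that control osteoclasts and macrophages were read in sorted marrow stroma. The genes were Tnfsf11, Tnfrsf11a, Tnfrsf11b, Csf1 and Il34, taken by their symbols from the 56980 genes of the count table. Each of the 4 RNA-seq libraries was made from 100 bone marrow mesenchymal stromal cells (MSCs) of a different wild-type mouse, sorted by FACS as CD45- Ter119- CD31- CD51+ PDGFRa+ Sca1-. The mice were males of a C57BL/6J line bred in-house and 14 weeks old, and no engineered allele or treatment is given for them. All 4 libraries form 1 group, so the genes were compared with each other and across mice, and no condition was tested. The wider study deletes Csf1r in cells that express a Cre from the Rank (Tnfrsf11a) locus, and none of the libraries analysed here carries that deletion.

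RANKL (the product of Tnfsf11) is a ligand of the TNF superfamily that binds RANK (Tnfrsf11a) on osteoclast precursors and drives their differentiation into bone-resorbing cells. Osteoprotegerin, or OPG (Tnfrsf11b), is a secreted decoy receptor that binds RANKL and keeps it from RANK, so that the balance of RANKL and OPG is commonly read as a ratio. CSF-1 (Csf1) and IL-34 (Il34) are separate ligands of the receptor CSF1R, on which macrophages and osteoclast precursors depend for survival and proliferation. Stromal and osteoblast lineage cells are known sources of RANKL, OPG and CSF-1 in marrow.

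Levels are given as TPM, the count of a gene per length of its merged exons, scaled to 1000000 in each library. Total counts were 43545349, 26050230, 42747050 and 22738604 in mice 1 to 4. The sorted population carried Pdgfra at 30.7 to 48.2 TPM and Itgav, the gene of CD51, at 12.9 to 18.1 TPM, while Ptprc, the gene of CD45, did not exceed 0.264 TPM. Ly6a, the gene of Sca1, against which the cells were sorted, had at most 1 count in mice 1 and 3 but was at 8.95 TPM (120 counts) in mouse 2 and 11.6 TPM (144 counts) in mouse 4. Summed osteoblast markers (5 genes, each read in all mice) were between 100027 and 196750 TPM, with Bglap, the osteocalcin gene, the largest part. Summed markers of leptin receptor positive marrow stroma (9 genes) were between 1247 and 5596 TPM. Of 8 macrophage markers, Adgre1, Csf1r, C1qa and Fcgr1 had 0 counts in all 4 libraries, and the list summed to between 3.92 and 23.7 TPM. The other markers of that list are named after their values were seen. Cd163 was between 3.38 and 9.28 TPM, and Mrc1 did not exceed 0.623 TPM. In mouse 3 C1qb was at 9.36 TPM and Cd68 at 6.63 TPM, against 0 and at most 0.497 TPM in the other mice. Of 8 osteoclast markers, 3 had a median above 1 TPM, against 44.2% of protein-coding genes, and Oscar and Dcstamp had 0 counts in all 4 libraries. The summed osteoclast list reached 274 to 690 TPM, of which Ctsk, the gene of cathepsin K, gave 274 to 603 TPM. Beside Ctsk, the markers with such a median were Acp5 and Mmp9, named after their values were seen. Acp5 was at 79.2, 0, 48.2 and 7.58 TPM in mice 1 to 4, and Mmp9 at 6.95, 0.813, 14.4 and 0 TPM.

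The start regions of 3 of the 5 genes were in the RefSeq promoter table (build GRCm38.p6) and are printed because the transcript levels of these genes took 3 different forms: Tnfsf11 varied widely between mice, Tnfrsf11a was close to 0 and Csf1 was steady. Each run is the 250 bases before the annotated start, on the strand of the gene, read 5′ to 3′. For Tnfrsf11a, RefSeq places the start a few bases downstream of GENCODE M21. Capitals mark exact matches, on either strand, to the TATA box in its short form TATAAA, to the CCAAT box, to the GC box in its form GGGCGG, and to the core of RUNX sites in its form TGTGGT. No marked stretch belongs to more than 1 motif.
Tnfsf11, chr14:78308044-78308293, minus strand: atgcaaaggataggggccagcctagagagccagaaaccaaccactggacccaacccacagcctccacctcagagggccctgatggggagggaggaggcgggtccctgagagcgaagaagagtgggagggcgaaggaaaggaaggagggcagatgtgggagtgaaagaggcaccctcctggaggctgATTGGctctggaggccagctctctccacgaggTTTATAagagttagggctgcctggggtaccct
Tnfrsf11a, chr1:105780473-105780722, plus strand: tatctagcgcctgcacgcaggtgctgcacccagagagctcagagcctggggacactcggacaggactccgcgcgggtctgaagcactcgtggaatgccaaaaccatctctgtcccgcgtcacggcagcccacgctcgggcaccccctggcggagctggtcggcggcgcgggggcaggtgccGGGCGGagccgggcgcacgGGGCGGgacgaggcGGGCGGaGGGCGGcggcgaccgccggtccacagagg
Csf1, chr3:107760470-107760719, minus strand: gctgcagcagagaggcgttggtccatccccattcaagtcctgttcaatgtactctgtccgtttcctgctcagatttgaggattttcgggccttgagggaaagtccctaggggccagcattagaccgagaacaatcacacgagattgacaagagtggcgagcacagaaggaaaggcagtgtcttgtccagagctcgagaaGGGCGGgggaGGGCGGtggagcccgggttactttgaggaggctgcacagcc

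The Tnfsf11 run held TATAAA on the opposite strand (TTTATA as printed), from 32 bases before the start, and CCAAT on the opposite strand (ATTGG as printed), from 64 bases before the start. Of 32851 promoters of this length in the table, 12.4% held TATAAA and 33.8% held CCAAT. The Csf1 run had no match to either and held GGGCGG at 2 places, from 51 and 41 bases before the start. The Tnfrsf11a run held GGGCGG at 4 places, and 32.7% of the promoters held it at least once. No match to TGTGGT was present in the 3 runs, against 14% of the promoters. The Tnfrsf11a run was the richest in bases G and C, at 73.6%, with 31 CpG dinucleotides. In Csf1 these were 56.4% and 10, in Tnfsf11 60.4% and 4, and the medians over all promoters were 52.4% and 6. The matches describe letters in these windows and were not tested for binding or use.

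Of the 5 genes, 3 were read in every mouse well above the cutoff of 1 TPM, 1 was read in only some mice and 1 was hardly read at all. Tnfrsf11b, Il34 and Csf1 lay between 26.5 and 134 TPM in all 4 libraries. Tnfsf11 reached 54.3 TPM in mouse 2 and had 0 counts in mouse 1. Tnfrsf11a had at most 1 count in any library. By the cutoff of a median above 1 TPM, 4 of the 5 genes passed, against 22.9% of the 52125 genes with a length and 44.2% of the protein-coding genes. A level above 1 TPM in each of the 4 mice was found for 3 of the 5 genes, for 15.4% of all genes with a length and for 30.1% of the protein-coding genes. Without mouse 2, or without mouse 3, the median of Tnfsf11 fell below the cutoff and 3 of the 5 genes passed.

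**Figure D1:**
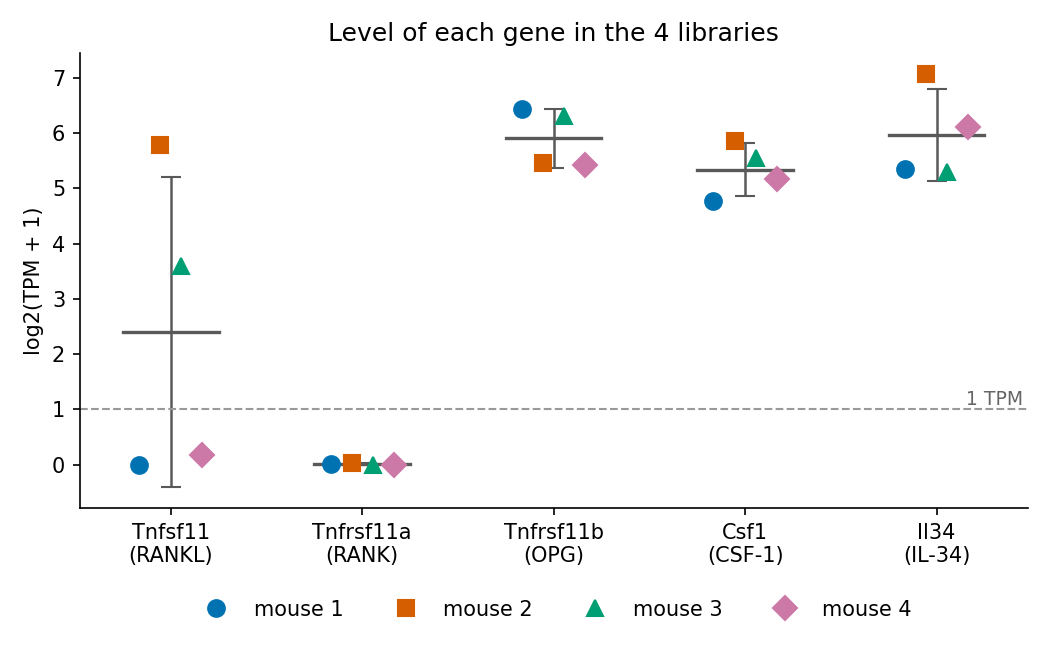
Level of each gene as log2(TPM + 1) on the vertical axis, with 1 symbol for each of the 4 mice, the mean as a horizontal bar and the SD (n = 4) as a whisker; the dashed line is 1 TPM. Tnfrsf11b, Csf1 and Il34 sit above the line in all 4 mice, Tnfsf11 sits above it in mice 2 and 3 only, and Tnfrsf11a is at the bottom in all 4.

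Tnfsf11 (ENSMUSG00000022015), which encodes RANKL, spans 78277445 to 78308043 of chromosome 14 (GRCm38, minus strand) and has 1 annotated transcript of 5 exons. It was counted 0 times in mouse 1, 1351 times in mouse 2, 431 times in mouse 3 and 3 times in mouse 4. These counts correspond to 0, 54.3, 11.2 and 0.130 TPM. Mice 2 and 3 were therefore high, and mice 1 and 4 were at or under 3 counts, the smallest count taken as detectable. The mean was 16.4 ± 25.8 TPM (SD, n = 4) and the median 5.64 TPM. Without mouse 2 the mean was 3.76 TPM.

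Mouse 4, with 3 Tnfsf11 counts, was the shallowest library, with 22738604 counts. The library with no Tnfsf11 count was the deepest of the 4, with 43545349 counts, where 3 counts correspond to 0.0763 TPM. Set against that floor, Tnfsf11 was at least 712-fold higher in mouse 2 and at least 146-fold higher in mouse 3 than in mouse 1. These bounds cover counting error only, since PCR copies are not independent molecules. Between the mice in which it was read well, mouse 2 was 4.87 times as high as mouse 3. Among the 4673 genes with a mean from 10 to 100 TPM, 2.4% had at most 3 counts in 2 or more of the mice, as Tnfsf11 did. The coefficient of variation (CV, the SD as a percentage of the mean) of Tnfsf11 was 157%, higher than in 98.2% of those genes, whose median CV was 42.4%. Tnfsf11 belongs to that range of levels only through mouse 2, without which its mean was 3.76 TPM, so both shares describe it and do not set it apart. In bulk libraries of 100 cells, fewer cells with a transcript and less transcript per cell cannot be told apart. Neither can be told apart from uneven copying by PCR.

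**Figure D2:**
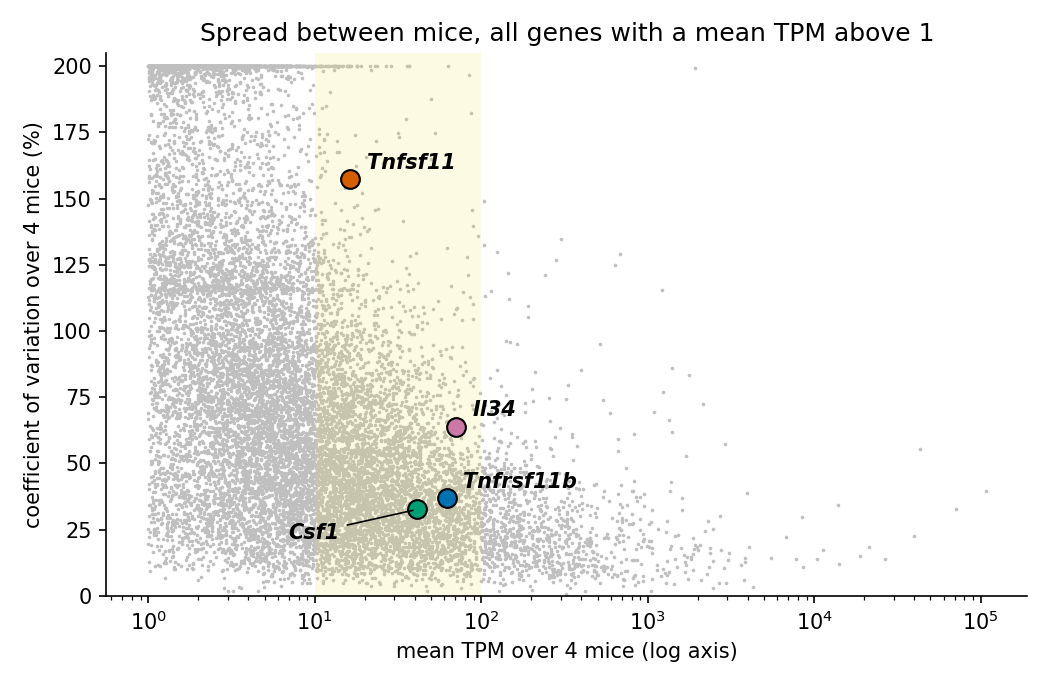
Coefficient of variation over the 4 mice (%) against the mean TPM (log axis) for the 14269 genes with a mean above 1 TPM in grey, with 4 of the 5 genes named and the range from 10 to 100 TPM shaded. Tnfsf11, at 157%, lies toward the top of the shaded range, which it enters through mouse 2, while Csf1 (32.6%) and Tnfrsf11b (36.8%) lie under the median of the shaded range and Il34 (63.9%) above it.

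Tnfrsf11a (ENSMUSG00000026321), which encodes RANK, spans 105780718 to 105847981 of chromosome 1 (plus strand), with 10 exons in its longest of 3 transcripts. It had 1 count in mouse 1, 1 in mouse 2 and none in mice 3 and 4. A count of 3 would correspond to between 0.0285 and 0.0485 TPM, so that no library held the receptor above the detectable level. No near-identical copy of any of the 5 genes was found among other annotated transcripts at 95% identity over 100 bases or more.

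Tnfrsf11b (ENSMUSG00000063727), the gene of OPG, spans 54250619 to 54278484 of chromosome 15 (minus strand) and has 1 transcript of 5 exons. Its level was 85.5 TPM in mouse 1, 42.9 in mouse 2, 78.0 in mouse 3 and 42.1 in mouse 4, from 1226 to 4241 counts. Mice 1 and 3 were high and mice 2 and 4 low, with the highest 2.03 times the lowest. Mice 1 and 3 also had the deeper libraries, with 43545349 and 42747050 counts against 26050230 and 22738604 in mice 2 and 4. The part of depth in this split was not tested. The mean of Tnfrsf11b was 62.1 ± 22.9 TPM (SD, n = 4). Its median of 60.4 TPM, the highest of the 5, exceeded that of 93.7% of protein-coding genes. The order of the mice was not that of Tnfsf11: mouse 1, with no Tnfsf11 count, had the most Tnfrsf11b.

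The ratio of Tnfsf11 to Tnfrsf11b, both in TPM, spread over several orders of magnitude. It was 1.27 in mouse 2, with a 95% exact Poisson interval of 1.2 to 1.34 from the Tnfsf11 count, and 0.143 in mouse 3, with an interval of 0.130 to 0.157. In mouse 4 the ratio was 0.00308, and the interval from 3 counts ran from 0.000636 to 0.00901. In mouse 1 it was 0, and the interval from a count of 0 reached up to 0.0011. Transcripts of the ligand exceeded those of the decoy receptor in 1 of 4 mice, and in mouse 3 the decoy transcript was 6.99 times as high as the ligand transcript. The intervals cover counting error only. On the log2(TPM + 1) scale Tnfrsf11b exceeded Tnfsf11 by 3.51 ± 3.0 (SD, n = 4) and in 3 of 4 mice, which did not pass the exact two-sided sign-flip permutation test (p = 0.25, adjusted p = 0.312 over 10 pairs).

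**Figure D3:**
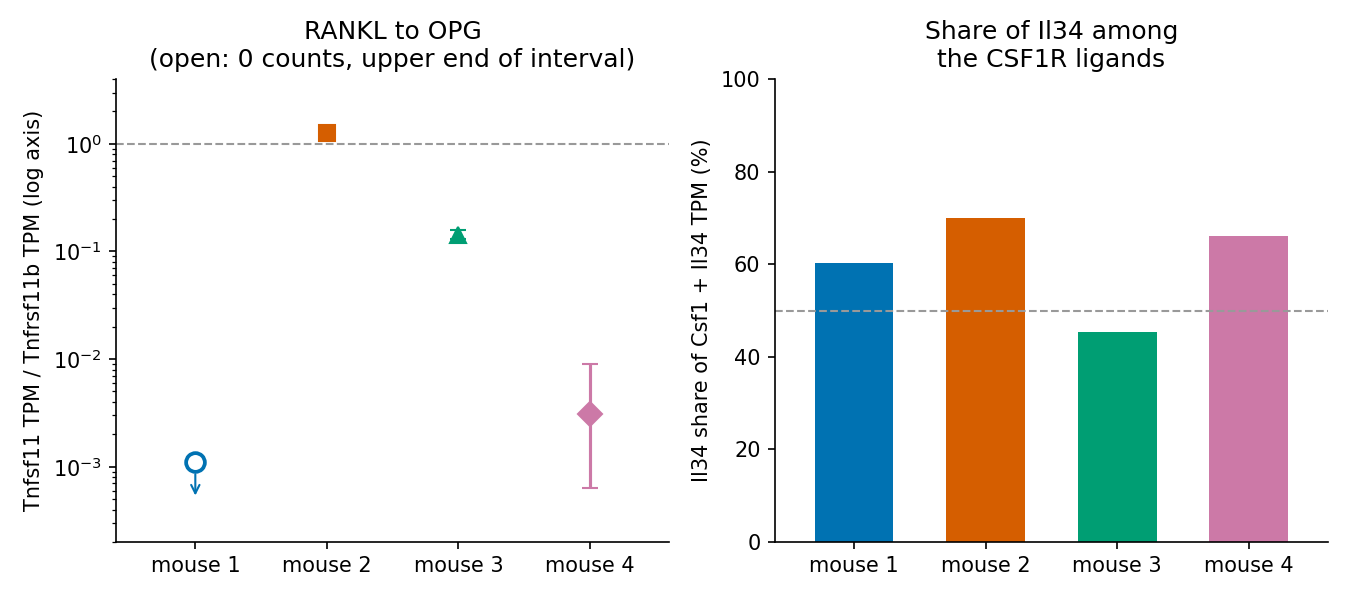
Left, the ratio of Tnfsf11 to Tnfrsf11b TPM in each mouse (log axis) with its 95% Poisson interval from the Tnfsf11 count, where the open symbol with an arrow is the upper end of the interval from a count of 0 in mouse 1 and the dashed line is a ratio of 1. Right, the share of Il34 (%) in the summed TPM of Csf1 and Il34, where the dashed line is an equal share; it is above that line in mice 1, 2 and 4 and at 45.4% in mouse 3.

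Csf1 (ENSMUSG00000014599) encodes CSF-1, also called M-CSF, and spans 107741048 to 107760469 of chromosome 3 (minus strand), with 7 annotated transcripts. It was read at 26.5 TPM in mouse 1, 57.3 in mouse 2, 46.1 in mouse 3 and 34.9 in mouse 4, from 1906 to 4211 counts. The mean was 41.2 ± 13.4 TPM (SD, n = 4). Mouse 2 was the highest and mouse 1 the lowest, at a ratio of 2.17. The CV of 32.6% was the lowest of the 5 genes and was higher than in 34.2% of the genes with a mean from 10 to 100 TPM. Csf1, like Tnfsf11, was thus highest in mouse 2 and next in mouse 3, over a far smaller range. Mice 1 and 4 cannot be ordered for Tnfsf11, which had 0 and 3 counts there. Of the genes with a mean from 10 to 100 TPM, 21.7% had mice 2 and 3 both above mice 1 and 4.

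Il34 (ENSMUSG00000031750) encodes IL-34 and spans 110741829 to 110805924 of chromosome 8 (minus strand), with 5 annotated transcripts. Its level was 40 TPM in mouse 1, 134 in mouse 2, 38.3 in mouse 3 and 68.3 in mouse 4, from 1298 to 2925 counts. Mouse 2 stood highest, at 3.50 times the level of mouse 3, and mice 1 and 3 were close together. The mean was 70.2 ± 44.8 TPM (SD, n = 4) and the median 54.1 TPM. Its exons share 22 bases with Gm15894 and 75 bases with Gm15895, annotated antisense genes that make up 1.12% and 3.83% of the merged Il34 exons. Gm15894 had 11 counts in mouse 1 and Gm15895 had 48 in mouse 2, and both had 0 in the other libraries, so that the overlap is small beside the Il34 counts. Since no strand option is given for the counting, reads of the shared bases cannot be assigned to a strand.

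The ligands of CSF1R were both read in every library, and their sum was 66.4 TPM in mouse 1, 192 in mouse 2, 84.5 in mouse 3 and 103 in mouse 4. Il34 made up 60.2%, 70.1%, 45.4% and 66.2% of that sum in mice 1 to 4, on average 60.4% ± 10.8 (SD, n = 4). It was the larger part in 3 of 4 mice. On the log2(TPM + 1) scale Il34 exceeded Csf1 by 0.62 ± 0.64 (SD, n = 4), which did not pass the exact two-sided sign-flip permutation test (p = 0.25, adjusted p = 0.312). This order depends on length: Il34 exons are 1959 bases long when merged and Csf1 exons 5281 bases, and in counts scaled to 1000000 per library without a length the share of Il34 was 37.0%. Csf1r, the gene of their shared receptor, had 0 counts in all 4 libraries.

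With 4 mice the smallest p that the sign-flip test can give is 0.13, so none of the 10 pairs of genes could pass a threshold of 0.05. Ordered by median TPM, the genes were Tnfrsf11b, Il34, Csf1, Tnfsf11 and Tnfrsf11a. Tnfrsf11b and Il34 did not differ beyond their spread, with a mean difference of -0.06 ± 1.32 on the log2(TPM + 1) scale (SD, n = 4, exact sign-flip p = 1). Tnfrsf11b was the higher of this pair in mice 1 and 3, the deeper libraries, and Il34 in mice 2 and 4. The part of depth in this order was not tested. Csf1 exceeded its neighbour Tnfsf11 in 4 of 4 mice, by 2.95 ± 2.36 (exact sign-flip p = 0.13, the smallest possible, adjusted p = 0.25), but by only 0.08 in mouse 2. Tnfsf11 exceeded Tnfrsf11a by 2.38 ± 2.80 and in 3 of 4 mice (exact sign-flip p = 0.25, adjusted p = 0.312), of which mouse 4 rests on 3 counts, and by 1.26 without mouse 2. Each of Tnfrsf11b, Il34 and Csf1 exceeded Tnfrsf11a in 4 of 4 mice, by 5.90, 5.95 and 5.33, with adjusted exact sign-flip p = 0.25 in each case. Since Tnfrsf11a is at 0 or 1 count, the pseudocount sets the size of these differences: with 0.1 in place of 1 they were 9.12, 9.18 and 8.55, and Tnfsf11 exceeded Tnfrsf11a by 4.19.

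Summed marker lists did not stay level between the mice while Tnfsf11 changed. The leptin receptor positive marrow stroma list summed to 1247 TPM in mouse 1, 5596 in mouse 2, 2809 in mouse 3 and 1464 in mouse 4. Like Tnfsf11, the list was highest in mouse 2 and next in mouse 3. Cxcl12 made up most of each sum. The other 8 genes summed to 264, 1266, 585 and 385 TPM, again highest in mouse 2 and next in mouse 3. All 9 of its genes were highest in mouse 2, against 26.2% of the genes with a mean from 10 to 100 TPM, and in 5 of the 9 both mice 2 and 3 lay above mice 1 and 4, against 21.7%. In 4 of the other 8 genes beside Cxcl12, mouse 4 lay above mouse 3. None of the 9 had 0 counts in every mouse. The osteocyte list summed to 1337, 648, 2246 and 491 TPM in mice 1 to 4, with Sost and Fgf23 at 0 counts in all. The osteoblast list was highest in mouse 4, at 196750 TPM, of which Bglap gave 156730 TPM. Without Bglap the other 4 genes of that list summed to 42829, 38901, 44359 and 40019 TPM in mice 1 to 4, and were highest in mouse 3. The chondrocyte list lay between 149 and 396 TPM. Erythroid markers were highest where Tnfsf11 had no counts, at 4980 TPM in mouse 1, and lowest in mouse 2, at 35.0 TPM. T and B lymphocyte markers, of CD45+ cells that the sort leaves out, summed to 0.0297, 0, 0.0177 and 1.46 TPM in mice 1 to 4. Lta, a TNF ligand known from lymphocytes, had 478 counts in mouse 2 and 0 in the other mice, and was named after its values were seen. Neutrophil markers lay between 6.84 and 39.7 TPM and endothelial markers between 0.0465 and 1.28 TPM. The part of these lists in the Tnfsf11 levels was not tested.

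**Figure D4:**
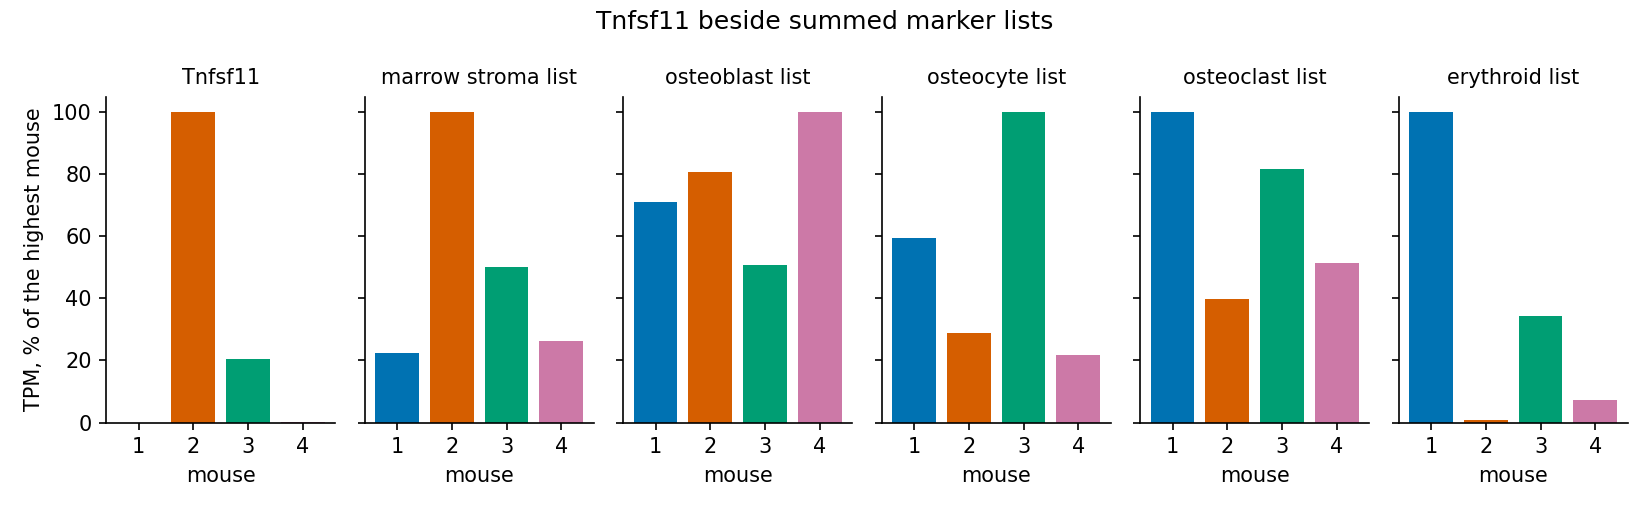
TPM of Tnfsf11 and the summed TPM of 5 marker lists in mice 1 to 4, each as a percentage of its highest mouse (vertical axis), with 1 bar per mouse. Tnfsf11 and the marrow stroma list are both highest in mouse 2 and next in mouse 3, whereas the osteoblast list, which Bglap dominates, is highest in mouse 4, the osteocyte list in mouse 3 and the osteoclast and erythroid lists in mouse 1.

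The receptors and partners of these factors were read unevenly. Of 3 genes for receptors that CSF-1 or IL-34 bind, 2 had a median above 1 TPM, against 44.2% of protein-coding genes. Sdc1, a heparan sulfate proteoglycan of the cell surface that binds IL-34, was at 27.3, 121, 98.1 and 24.6 TPM in mice 1 to 4. It was the only 1 of the 3 with mice 2 and 3 both above mice 1 and 4, as in 21.7% of the genes with a mean from 10 to 100 TPM. Ptprz1, a receptor phosphatase that also binds IL-34, was between 2.89 and 10.5 TPM. Lgr4, a receptor of R-spondins that also binds RANKL, was at 20.4 ± 5.59 TPM (SD, n = 4). The cytokine TRAIL (Tnfsf10), which OPG also binds, did not exceed 0.0184 TPM, under 3 counts in all 4 libraries.

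Proteases that release RANKL or CSF-1 from the cell surface were read in most libraries. Mmp14, a membrane-bound matrix metalloproteinase, was at 58.3 ± 7.69 TPM (SD, n = 4), and Adam10 at 27.5 ± 4.73 TPM. Adam17 was at 9.58, 9.29 and 9.06 TPM in mice 1, 3 and 4. In mouse 2 it was at 0.0377 TPM, which rests on 3 counts, the floor. That library also had the fewest genes with a count, 16109 against 18683, 18907 and 18802 in mice 1, 3 and 4. The cause of the low Adam17 value was not tested.

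Of 11 receptors through which hormones and cytokines raise RANKL in stromal cells, 9 had a median above 1 TPM, against 44.2% of protein-coding genes, and the median of the list was 6.85 TPM against 0 TPM over all genes with a length. The highest were Pth1r, the parathyroid hormone receptor, at 241 ± 75.3 TPM (SD, n = 4), Lifr, a receptor subunit for LIF and oncostatin M, at 128 ± 24.5 TPM, and Vdr, the vitamin D receptor, at 94.2 ± 36.4 TPM. Pth1r was read at 291 TPM in mouse 1, 210 in mouse 2, 314 in mouse 3 and 151 in mouse 4. In 5 of the 11 both mice 2 and 3 lay above mice 1 and 4. This held for 21.7% of the genes with a mean from 10 to 100 TPM, a range outside which several of the 11 lie. Among the 5, Ptger4, the prostaglandin E2 receptor EP4, was singled out after its values were seen. It was at 0, 7.56, 2.24 and 0.277 TPM in mice 1 to 4, and so was highest in mouse 2 and next in mouse 3, like Tnfsf11. Il1r1, the interleukin-1 receptor and likewise singled out afterwards, was at 3.71, 16.1, 9.99 and 2.42 TPM. The part of these receptors in the Tnfsf11 levels was not tested.

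Of 9 genes downstream of RANK, 8 had a median above 1 TPM, against 44.2% of protein-coding genes. These adaptors and transcription factors serve many receptors. The highest were Fos at 1619 ± 526 TPM (SD, n = 4), Rela, an NF-kB subunit, at 36.2 ± 17.2 TPM, and Nfkb2, a subunit of the noncanonical NF-kB route, at 7.24 ± 4.14 TPM.

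Other secreted or surface factors that act on osteoclasts or their precursors were read for 9 of 18 genes by the median, near the 44.2% of protein-coding genes, and 5 passed 1 TPM in each of the 4 mice, against 30.1% of protein-coding genes. The chemokine Cxcl12 was the highest of the list, at 983, 4329, 2224 and 1079 TPM in mice 1 to 4. Like Tnfsf11, Cxcl12 was highest in mouse 2 and next in mouse 3. Ccl2, a chemokine for monocytes, varied widely, at 16 TPM in mouse 1 and 398 in mouse 2, and Postn, a matricellular protein, was at 68.3 ± 32.6 TPM (SD, n = 4). Of the 18 genes, 5 had 0 counts in all 4 libraries, and these were Sost, Il11, Lif, Il1a and Il1b.

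Csf1 and Il34 were among the most abundant of 10 growth factor ligands for blood cells. Of this list 5 had a median above 1 TPM, near the 44.2% of protein-coding genes, and the median of Kitl, the stem cell factor gene, was 60.9 TPM, above the 54.1 TPM of Il34 and the 40.5 TPM of Csf1. Kitl was at 14.9, 112, 73.4 and 48.4 TPM in mice 1 to 4. The other colony-stimulating factor genes Csf2 and Csf3, and Il3, had 0 counts in all 4 libraries. Of 18 TNF superfamily ligands 3 had a median above 1 TPM, against 44.2% of protein-coding genes, and 0 passed it in each of the 4 mice, against 30.1%. The highest medians were those of Tnfsf11 at 5.64 TPM, Tnfsf12, the gene of TWEAK, at 5.52 TPM, and Eda at 2.62 TPM. The median of Tnfsf11 lies between 0.130 and 11.2 TPM, with no mouse near it. Tnfsf12 was at 0.150, 12.9, 4.47 and 6.58 TPM in mice 1 to 4.

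**Figure D5:**
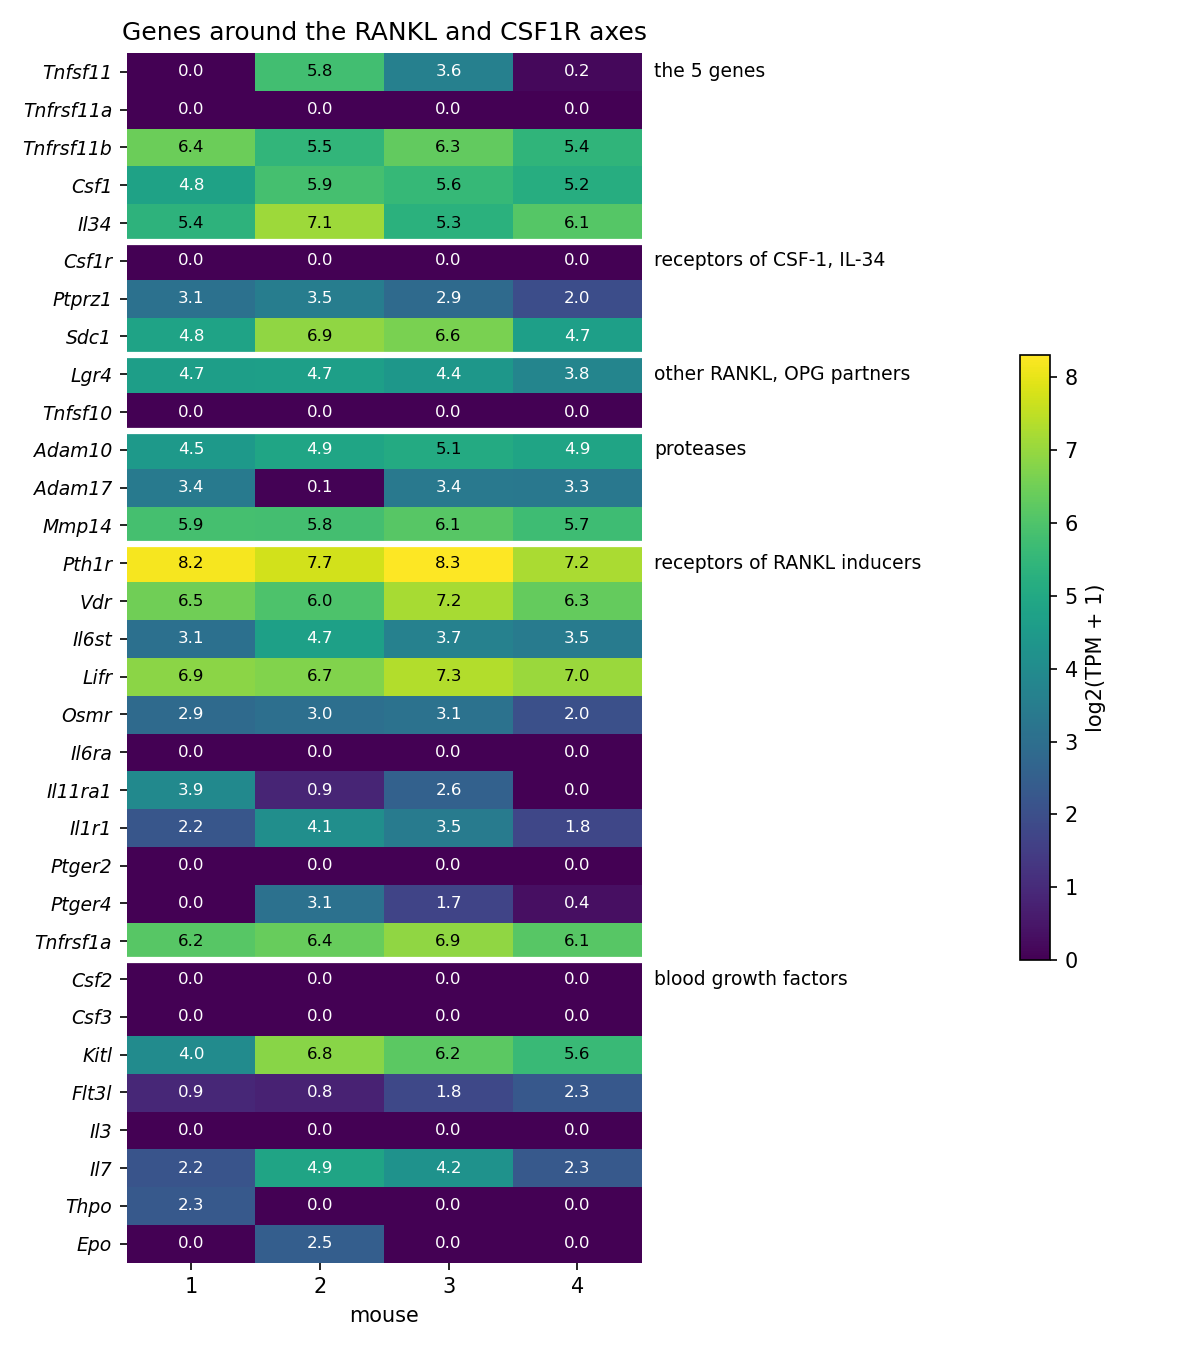
Colour and printed number give log2(TPM + 1) for each gene (rows, grouped by role) in each of the 4 mice (columns). Tnfrsf11a, Csf1r, Tnfsf10, Il6ra, Ptger2, Csf2, Csf3 and Il3 read 0.0 in every mouse, whereas Tnfrsf11b, Csf1, Il34, Sdc1, Adam10, Mmp14, Pth1r, Lifr, Vdr and Tnfrsf1a lie above 4 in every mouse.

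The genes whose levels over the 4 mice were most like those of each steadily read gene were found among 21917 protein-coding genes, by the smallest value of the largest difference in log2(TPM + 1) in any mouse. For Il34 the nearest was Lepr, the leptin receptor gene that marks marrow stroma, within 0.32 in each mouse, at 31.9, 120, 44.5 and 64.8 TPM. Polr1h and Rarres2 followed, within 0.44 and 0.46. Only 4 of these genes lay within 0.5 of Il34, compared with 48 for Csf1 and 81 for Tnfrsf11b. For Csf1 the nearest were Cdk16, Irf3 and Nudt2, within 0.14, 0.14 and 0.17. For Tnfrsf11b they were Pdha1, Cdk5rap3 and Cdc123, within 0.11, 0.15 and 0.19. These likenesses describe 4 libraries that share a sort and a protocol.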

How the data were processed

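RNA-seq was made from 4 libraries of 100 sorted MSCs each, following a full-length, oligo-dT cDNA protocol without described molecular identifiers. The authors deposited raw counts of read pairs per gene for the 4 mice. Per the labels and the Supplementary Methods, they aligned to GRCm39 with STAR 2.7.10 and, with featureCounts of Subread 1.6.5, assigned pairs that mapped to 1 place to exons, with no strand option given. PCR copies are not independent molecules, so intervals cover counting error only, and the floor is a set count.

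Counts were turned into TPM with Python 3.11.15 (numpy 2.4.6, pandas 2.3.3, scipy 1.17.1) and merged exon lengths of GENCODE M21, which is on GRCm38. Positions are those of GRCm38 and none was converted. The 4855 genes without a length there were left out, and the level of a gene is shifted where its exons differ between the annotations. The floor was 3 counts. Pairs of genes were compared by the within-mouse difference in log2(TPM + 1) in an exact permutation test (sign flips, two-sided) and Benjamini-Hochberg adjustment over 10 pairs. The p-values measure only the spread between these 4 mice. Near-identical transcripts were searched with BLAST 2.17.0, and the computation was tested on simulated data. Alternatives used edgeR 4.0.16 (TMM factors) and DESeq2 1.42.0 (size factors) for scaling only, the longest transcript, no length, protein-coding genes only, other summaries and cutoffs, a pseudocount of 0.1, and leaving out each mouse.

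Named were the 5 genes, every gene of pathway lists of 5 or fewer and otherwise the 3 with the highest median TPM, the 3 protein-coding genes most like each gene with at least 10 counts in every mouse, marker lists by their sum and genes at 0, and genes that overlap the 5. Genes named outside this rule are said to be so. The genes and lists were chosen with earlier results of these data known. Promoter sequences are from RefSeq on GRCm38.p6. Tnfrsf11b and Il34 are not shown there.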

Additional observations from a re-analysis of the deposited data

Results flagged for a closer look

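The ratio of Tnfsf11 to Tnfrsf11b was largest in mouse 2. The gap from its 1.27 to the next mouse, at 0.143, took up 0.887 of the range over the 4 mice, beyond the 95% critical value of Dixon's test for 4 samples. That test assumes normally distributed values, while this raw ratio spread over several orders of magnitude. Passing it therefore does not set mouse 2 apart. In mice 1 and 4 the ratio rested on 0 and 3 Tnfsf11 counts, and the TPM of Tnfsf11 itself, at 0.795, did not pass. The summed T and B lymphocyte markers were highest in mouse 4, with a gap of 0.98 of the range, between its 1.46 TPM and the 0.0297 TPM of mouse 1. All of that 1.46 TPM came from Cd79a, at 22 counts, named after its values were seen. Dixon's test suits such a sum no better, so passing it does not set mouse 4 apart. Of the levels, ratios and sums examined, 18 were compared in this way and 2 passed, where chance alone would give about 0.9.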

How the results depend on the processing

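Without a length, in counts scaled to 1000000 per library, the mean of Tnfrsf11a was 0.0153, that of Csf1 was 92.0 and the share of Il34 was 37.0%. In the same unit, 3 differences on the log2 scale changed sign: Tnfrsf11b minus Il34 to 0.46, Tnfrsf11b minus Csf1 to -0.33 and Il34 minus Csf1 to -0.79. Leaving out a mouse moved Tnfrsf11b minus Il34 between -0.43 and 0.47, positive without mouse 2 (0.47) or mouse 4 (0.15). The sign of the other 7 differences was kept in all 10 alternatives run on each, although a pseudocount of 0.1 raised the 4 against Tnfrsf11a to between 4.19 and 9.18. Leaving out a mouse moved the median ratio of Tnfsf11 to Tnfrsf11b from 0.0731 to between 0.00308 (without mouse 2 or mouse 3) and 0.143 (without mouse 1 or mouse 4), and the mean of Tnfsf11 to between 3.76 (without mouse 2) and 21.9 TPM. With the cutoff at 1 TPM in every mouse, added after the data were seen, 5 of the other osteoclast regulators and 0 of the TNF ligands passed. TMM or DESeq2 factors changed no sign, but they scale all genes of a library alike. Apart from the pseudocount they cancel in a difference within a mouse, so this outcome was fixed in advance. Counts of 3 or fewer leave Tnfsf11 in mice 1 and 4 and Tnfrsf11a in all 4 without a measurable level. Of these 2 mice for Tnfsf11, mouse 1 was the deepest library, at 43545349 counts, and mouse 4 the shallowest, at 22738604 counts. The part of depth was not tested.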

Other observations

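Some ligands were counted in a single mouse, named here after their values were seen. Lta, the lymphotoxin alpha gene, was at 31.1 TPM in mouse 2 and had 0 counts in the other mice. Epo was read in mouse 2 alone at 4.52 TPM, and Thpo in mouse 1 alone at 3.94 TPM. Of the 14269 genes with a mean above 1 TPM, 1139 (7.98%) had 0 counts in 3 of the 4 mice, and 185 of them were counted in mouse 2 only.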
